A study of Arabidopsis thaliana with 6 samples.

Results

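Aurora kinases, spindle checkpoint proteins and their mitotic partners were given as 10 genes of Arabidopsis thaliana, named by symbol or locus in the annotation of an Affymetrix AraGene array. Of these, 4 had a probe paired with them and are described here, out of 16548 genes with a probe of their own. They are AUR1 (AT4G32830), AUR2 (AT2G25880), BUBR1 (AT2G33560) and the BUB3-like gene AT1G69400, each read by 1 probe. MAD2 (AT3G25980), TPX2 (AT1G03780), EB1C (AT5G67270), PLE (AT5G51600) and the B cyclins CYCB2;4 (AT1G76310) and CYCB1;3 (AT3G11520) had no probe paired with them in that annotation and were not analysed here. The genes were chosen by name and not by a threshold on these arrays, although they come from a set already known to lie lower in induced cells.

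The arrays hold RNA from suspension cells kept in darkness at 23 °C and shaken at 124 rpm. All 6 samples carried an estrogen-inducible VND1-GFP construct. VND1 is a NAC transcription factor that starts the differentiation of xylem vessel elements, and the comparison asks which genes lie downstream of it. Induced cells (3 arrays) received 5 µM estrogen for 24 h, and uninduced cells (3 arrays) were kept for the same 24 h without it. Since cells lacking the construct were not given estrogen on any of these arrays, effects of VND1, of estrogen and of handling cannot be told apart. Nothing in the labels tells whether the line is 1 clone or whether each sample came from its own culture. The p-values therefore measure no more than the variation among these arrays, and that variation may be technical.

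The spindle checkpoint holds a dividing cell before anaphase until every chromosome is attached to spindle microtubules. At unattached kinetochores, proteins of the MAD and BUB families assemble into a complex that blocks the anaphase-promoting complex, the ubiquitin ligase that marks B cyclins and the anaphase inhibitor securin for destruction. Aurora kinases act beside it. In Arabidopsis the alpha class, AUR1 and AUR2, works on spindle microtubules and the forming cell plate, and the beta class, AUR3, sits on centromeric chromatin. Vessel elements leave the division cycle before they build their walls and die.

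Levels are log2 values as deposited, from 0.30 to 14.05 over 38408 probes. By the numbers in their titles the arrays split into a run of 2, which holds replicate 1 of each group, and a run of 4, which holds replicates 2 and 3, and what these numbers mean is not given in the labels. Array medians were 6.15 and 6.08 in the run of 2 and 5.41 to 5.55 in the run of 4, so differences are also given within each run. Of 12 vessel differentiation markers listed, 7 were measured and all 7 rose with induction, by 2.78 to 6.82 on the log2 scale (limma, Benjamini-Hochberg adjusted p under 0.05). Of 12 reference genes listed, 7 were measured and none passed that test, with differences from -0.16 to 0.11. The photosynthesis gene RCA, the only measured one of 6 listed, lay between the 31.7th and 37.6th percentile of the probes of its array, and its difference was 0.10.

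AUR1, AUR2, BUBR1 and AT1G69400 were all clearly expressed, and their mean levels were lower in induced cells, at between 74.0% and 87.6% of the uninduced level once taken off the log scale. None of the 4 passed the test over all probes (limma, adjusted p from 0.825 to 0.9999). At an unadjusted p under 0.05, 2 of the 4 were lower, AUR2 and BUBR1. Over all 38408 probes, 0% were called lower and 0.534% higher at the adjusted threshold, and 2.74% were lower at the unadjusted one. Of the 6524 probes whose mean level lies within the range of the 4 genes, 342 were lower at the unadjusted threshold. In these bulk samples fewer dividing cells and less of the transcript in each dividing cell cannot be told apart.

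**Figure D1:**
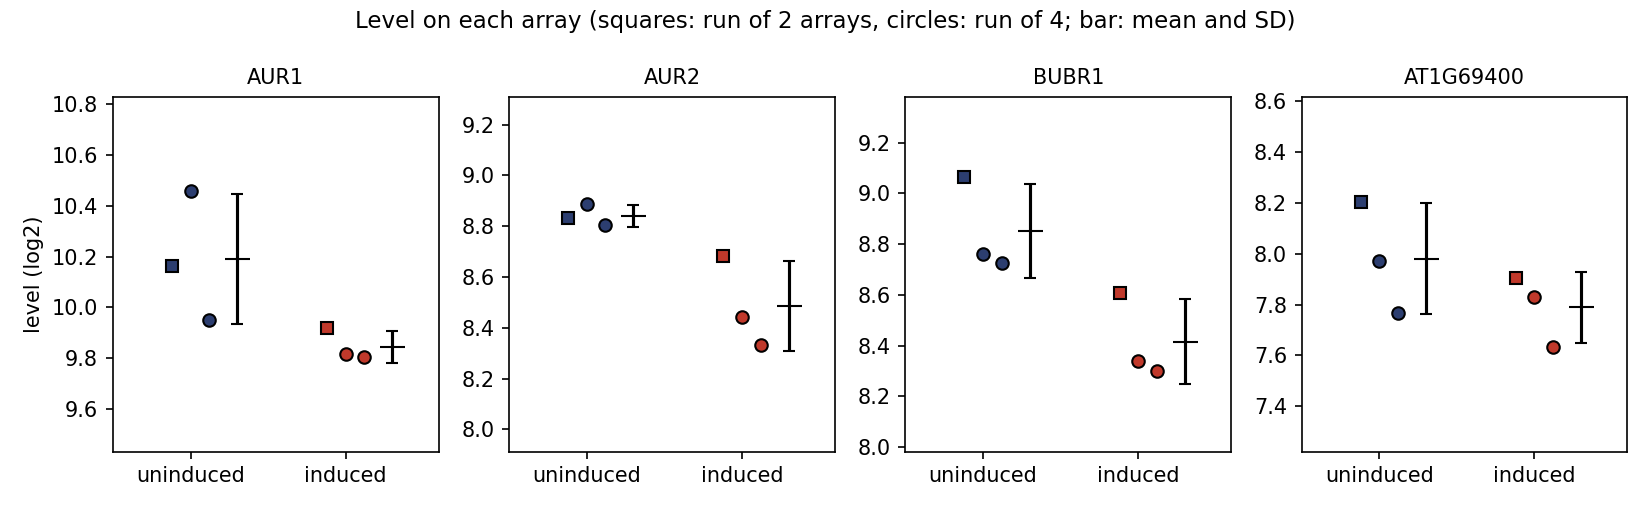
Level (log2, y axis) of AUR1, AUR2, BUBR1 and AT1G69400 on each uninduced and induced array, with squares for the run of 2 arrays, circles for the run of 4 and bars for the mean and SD of 3 arrays. All axes span the same range of log2 units, and the groups overlap for AT1G69400 only.

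AUR1 is a serine/threonine kinase of the mitotic spindle and cell plate. Its level was 9.92, 9.81 and 9.80 on the 3 induced arrays and 10.16, 10.46 and 9.95 on the 3 uninduced ones. Every induced array lay below every uninduced one, by a narrow margin of 9.92 against 9.95, and uninduced replicate 2 stood highest. The means were 9.84 ± 0.06 and 10.19 ± 0.26 (SD, n = 3), so the uninduced arrays varied far more among themselves. The difference was -0.35 ± 0.17 (SE, limma adjusted p = 0.957), with a 95% interval from -0.77 to 0.07. AUR1 lay between the 91.2nd and 94.6th percentile of its array, so its signal was far from the dim end of the scale.

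AUR2 is the close paralogue of AUR1, and both kinases share their roles in spindle and cell plate. Its level was 8.68, 8.44 and 8.33 on the induced arrays and 8.83, 8.89 and 8.80 on the uninduced ones. Here the uninduced arrays kept close together, and the groups did not overlap. The means were 8.49 ± 0.18 and 8.84 ± 0.04 (SD, n = 3), which puts the wider spread in the other group than for AUR1. The difference was -0.36 ± 0.14 (SE, adjusted p = 0.865), with a 95% interval from -0.71 to -0.003116 before any adjustment. The probe letters are not in the files used here, so whether the AUR1 and AUR2 probes also read the other paralogue was not tested.

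BUBR1 belongs to the BUB1 and MAD3 family, whose proteins bind kinetochores and take part in the complex that blocks the anaphase-promoting complex. Its level was 8.61, 8.34 and 8.30 on the induced arrays and 9.06, 8.76 and 8.73 on the uninduced ones. The array of the run of 2 was the highest in each group, and the groups did not overlap. The means were 8.42 ± 0.17 and 8.85 ± 0.19 (SD, n = 3). With -0.43 ± 0.16 (SE, adjusted p = 0.825, 95% interval from -0.84 to -0.03) it had the largest difference of the 4.

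AT1G69400 is a BUB3-like gene. In yeast and animals BUB3 carries BUB1 and its relatives to the kinetochore. Its level was 7.91, 7.83 and 7.63 on the induced arrays and 8.20, 7.97 and 7.77 on the uninduced ones. The groups overlapped, since 2 induced arrays lay above the lowest uninduced one. The means were 7.79 ± 0.14 and 7.98 ± 0.22 (SD, n = 3), and the difference of -0.19 ± 0.17 (SE, adjusted p = 0.9999) had a 95% interval from -0.61 to 0.23.

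The difference was negative in both runs of arrays for all 4 genes. It was negative in both runs for 32.5% of all probes, and for 43.6% of the 6524 probes whose mean level lies within the range of the 4 genes. In the run of 2, with 1 array per group, it was -0.25 for AUR1, -0.15 for AUR2, -0.46 for BUBR1 and -0.30 for AT1G69400. In the run of 4 it was -0.40, -0.46, -0.42 and -0.14 in the same order, with limma adjusted p from 0.331 to 0.723 in those 4 arrays alone, where 0.00781% of all probes were called lower. BUBR1 thus gave nearly the same value in each run, while AUR1, AUR2 and AT1G69400 differed between runs by 0.15, 0.31 and -0.16 (run of 2 minus run of 4). A test of that difference itself, the interaction of induction with run, passed for none of the 4 (limma adjusted p from 0.909 to 0.996, unadjusted from 0.178 to 0.860). Over all probes 0% passed it, and 6.18% had an unadjusted p under 0.05. The interaction test had 2 residual degrees of freedom, so it could miss differences between the runs.

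**Figure D2:**
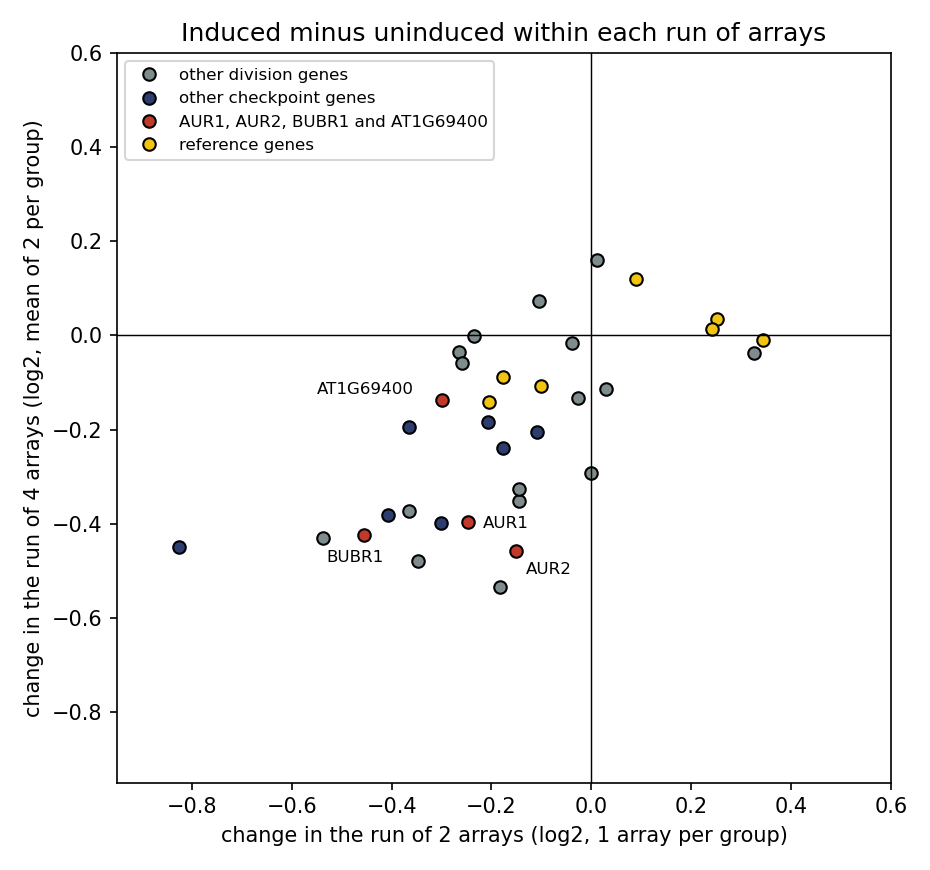
Induced minus uninduced difference (log2) in the run of 2 arrays (x axis, 1 array per group) and in the run of 4 (y axis, mean of 2 arrays per group) for AUR1, AUR2, BUBR1 and AT1G69400, other measured division genes and reference genes. AUR1, AUR2, BUBR1 and AT1G69400 lie at the lower left, negative in both runs, while the 7 reference genes span -0.20 to 0.34 on the x axis and -0.14 to 0.12 on the y axis, ranges that take in AUR2 on the x axis and AT1G69400 on the y axis.

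With the run as a block in the fit, the standard errors of the 4 differences became smaller. The differences themselves could not change, since each run holds as many induced as uninduced arrays. For BUBR1 the standard error went from 0.16 to 0.07, and the 95% interval from -0.63 to -0.24. The adjusted p was 0.380 for AUR1, 0.247 for AUR2, 0.125 for BUBR1 and 0.478 for AT1G69400 (limma), so none of the 4 passed. With the block, 0.0338% of all probes were called lower and 0.992% higher. Only when a variance trend and robust estimation were added to the block did 1 of the 4 pass, BUBR1 at an adjusted p of 0.0156. In that fit 1.1% of all probes were called lower and 2.09% higher. Of the 6524 probes in the level range of the 4 genes, it called 201 lower and 280 higher. The BUBR1 call was lost whichever of the 6 arrays was left out (adjusted p from 0.0699 to 0.0916), while its difference stayed between -0.45 and -0.42. Lower calls over all probes also fell, from 423 to 75, 39 and 21 without induced replicate 1, 2 or 3.

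The median difference over the 4 genes was -0.35, against -0.02 over all probes and -0.05 over the 6524 probes whose mean level lies within the range of the 4 genes (7.89 to 10.02). Every induced array lay below every uninduced one for 3 of the 4 genes, for 7.81% of all probes and for 17.4% of the probes in that range of levels. In the list of all differences BUBR1 stood at the 7.05th percentile, AUR2 at the 10.4th, AUR1 at the 10.95th and AT1G69400 at the 24.1st. Their differences therefore lie on the lower side of the distribution over all probes and short of its tail. On that side the probes in that range of levels spread less, and places among them were not ranked. These are descriptions, since the genes were chosen with earlier results of these arrays known.

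**Figure D3:**
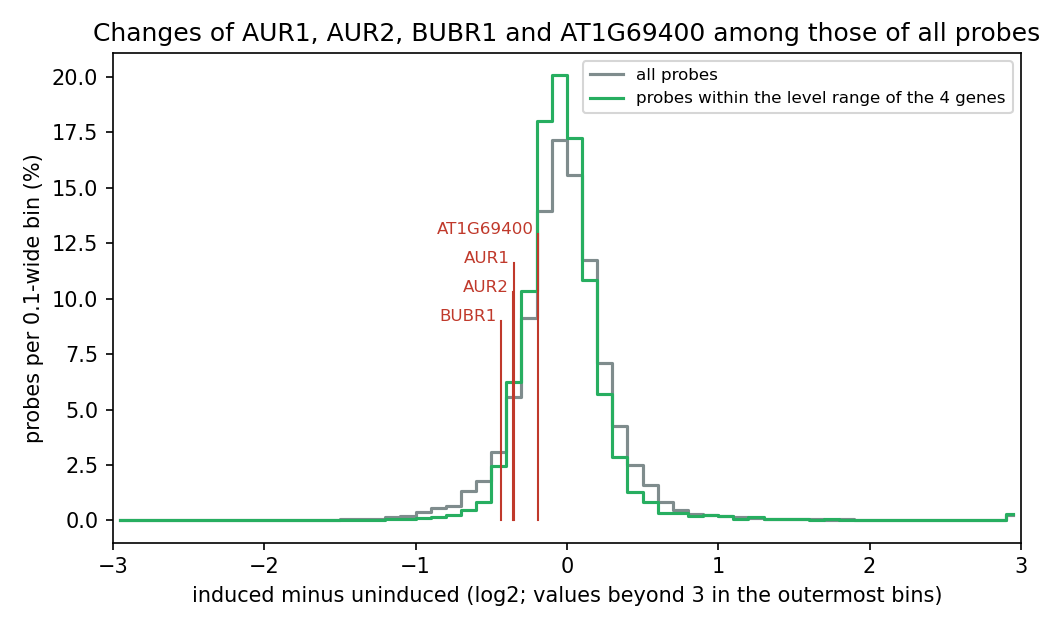
Share of probes (%, y axis) in each 0.1-wide bin of the induced minus uninduced difference (log2, x axis), for all 38408 probes and for the 6524 probes within the level range of the 4 genes, with a red line at the difference of each gene. The lines run from -0.43 (BUBR1) to -0.19 (AT1G69400), on the left flank of both distributions and short of the tail of the one over all probes.

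The measured genes of the checkpoint and chromosomal passenger list all had the same sign. Of 14 listed genes, which include the 4 above, 11 were measured, and 0 passed the test in either direction (limma; 4 were lower and 0 higher at an unadjusted p under 0.05, against 2.74% and 3% of all probes). At that unadjusted threshold 342 of the 6524 probes in the level range of the 4 genes were lower and 300 higher. All 11 differences were negative, with a median of -0.35 and a range from -0.57 to -0.17. All 11 were negative in both runs, against 32.5% of all probes and 43.6% of those in the level range of the 4 genes. Every induced array lay below every uninduced one for 9 of them, against 7.81% and 17.4% of these probes. The genes share the same 6 arrays, so they are not 11 separate observations. These counts include the 4 genes above, which come from a set already known to lie lower in induced cells. The list itself was also chosen with earlier results of these arrays known. The median is the difference of AUR1 itself. Both ends of the range, -0.57 and -0.17, belong to other genes of the list.

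Among the BUB3 genes, BUB3.1 (AT3G19590) had the larger difference. Its level was 8.003, 7.80 and 7.76 on the induced arrays and 8.41, 8.11 and 8.22 on the uninduced ones, without overlap. The difference was -0.39 ± 0.15 (SE, adjusted p = 0.825), and -0.41 and -0.38 in the runs of 2 and 4. BUB3.2 (AT1G49910), its paralogue, gave 9.88, 9.90 and 9.95 against 10.06, 10.15 and 10.18. This pair of groups was tight as well as separate, and its difference was -0.22 ± 0.12 (SE, adjusted p = 0.999). With the block, trend and robust estimation BUB3.1 passed at an adjusted p of 0.0379 and BUB3.2 did not (0.0809).

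The chromosomal passenger complex carries the Aurora kinase to centromeres. AUR3 (AT2G45490), the beta Aurora kinase, had levels of 9.50, 9.33 and 9.58 on the induced arrays and 9.87, 9.58 and 9.72 on the uninduced ones. Induced replicate 3 and uninduced replicate 2 all but met, and the difference was -0.25 ± 0.14 (SE, adjusted p = 0.9999). All 3 Aurora genes thus gave negative differences, from -0.36 to -0.25, of which none passed the test. WYR (AT5G55820), the plant counterpart of the inner centromere protein that activates Aurora, gave -0.17 ± 0.12 (SE, adjusted p = 0.9999), the smallest of the list.

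The list holds 3 more genes for which the gene table gives a locus and no name. AT5G05510 had the largest difference of the 11, with levels of 7.24, 7.46 and 7.39 on the induced arrays against 8.06, 8.06 and 7.69 on the uninduced ones. The groups lay apart, and the difference was -0.57 ± 0.16 (SE, adjusted p = 0.620), or 67.1% of the uninduced level. It was -0.83 in the run of 2 and -0.45 in the run of 4, and the interaction with run did not pass (adjusted p = 0.935). AT4G39630 gave -0.37 ± 0.26 and AT2G20635 -0.19 ± 0.13 (SE). The AT4G39630 groups overlapped because each array of the run of 2 lay far above the others of its group, at 7.62 and 7.93 against 6.95 to 7.44. Its difference was -0.30 in the run of 2 and -0.40 in the run of 4. With the run as a block it was -0.37 ± 0.08 (SE, limma adjusted p = 0.187).

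**Figure D4:**
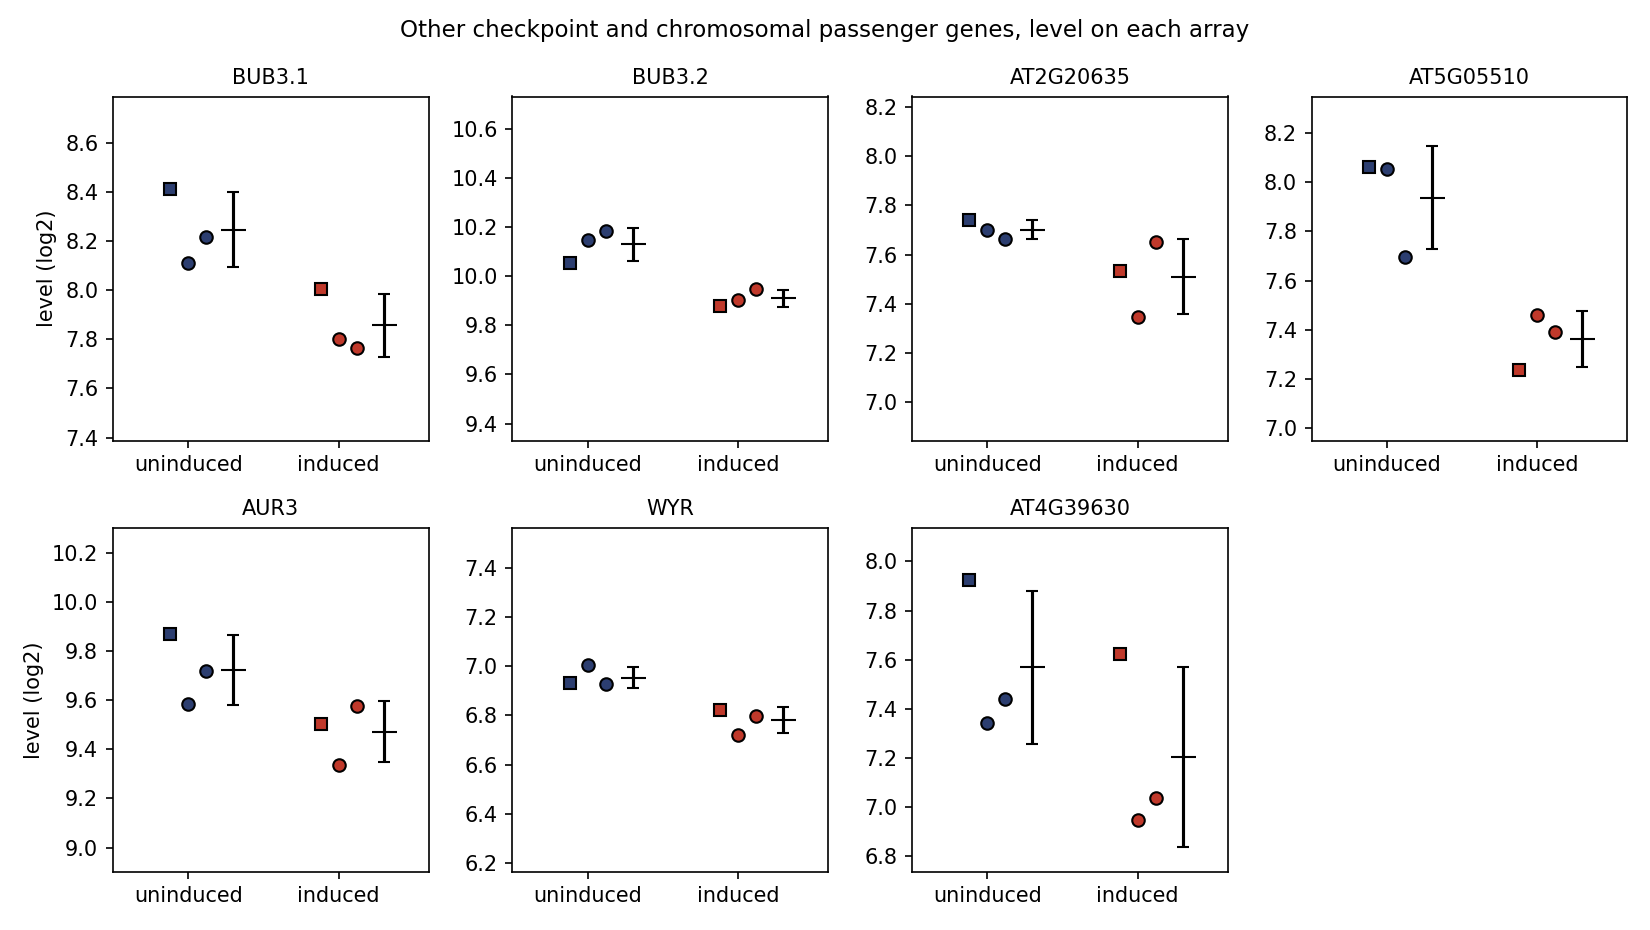
Level (log2, y axis) of the other 7 measured checkpoint and chromosomal passenger genes on each array, drawn as for the 4 genes above (squares for the run of 2, circles for the run of 4, bars for mean and SD of 3 arrays). The induced arrays lie below the uninduced ones for each gene except AT4G39630, where the groups overlap.

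The anaphase-promoting complex is the target of the checkpoint, and 20 genes were listed for it, of which 3 were measured. CDC27a (AT3G16320) and HBT (AT2G20000), which code for its CDC27 subunits, gave -0.20 ± 0.16 and -0.07 ± 0.12 (SE). SAMBA (AT1G32310), a plant regulator of the complex, gave -0.08 ± 0.16. None of the 3 passed (adjusted p = 0.9999 for each), and the groups overlapped for all 3.

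In the list of A and B cyclins, 1 of 21 genes was measured, AT1G20590, whose level of 4.12 ± 0.60 in induced and 4.11 ± 0.77 in uninduced cells (SD, n = 3) lay between the 16.4th and 28.9th percentile of the arrays. Its 95% interval without the block, from -1.20 to 1.22, would hide a change as large as any seen in the checkpoint list. With the run as a block the interval ran from -0.56 to 0.59. That would still hide all of those changes but the largest, -0.57 for AT5G05510. Of 17 kinase, subunit and inhibitor genes 1 was measured, the inhibitor SIM (AT5G04470), at 0.08 ± 0.17 (SE). The lists of D cyclins (10 genes), spindle and phragmoplast microtubule proteins (14) and cell cycle transcription factors (11) had no measured gene.

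The mitotic kinesin and cytokinesis list resembled the checkpoint list in sign. Of 17 genes 7 were measured and 0 passed the test (limma; 2 were lower at an unadjusted p under 0.05, against 2.74% of all probes). At that unadjusted threshold 342 of the 6524 probes in the level range of the 4 genes were lower. Of the 7, 6 were negative, against 54.2% of all probes and 59.1% of those in the level range of the 4 genes, and the median was -0.37. The 4 largest were AT5G60930 (-0.47 ± 0.20, SE), AT3G44050 (-0.43 ± 0.12), AT4G14330 (-0.42 ± 0.14) and AT2G28620 (-0.37 ± 0.17). AT3G44050 had the tightest groups of these, at 8.09, 8.06 and 8.05 against 8.44, 8.50 and 8.57. With the block, trend and robust estimation AT3G44050 and AT2G28620 passed (adjusted p = 0.0257 and 0.0433), in a fit that called 1.1% of all probes lower. That fit called 201 of the 6524 probes in that range of levels lower. KEU (AT1G12360), which acts in membrane fusion at the cell plate and in secretion, was the one gene with a positive difference, 0.11 ± 0.13.

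Kinetochore genes showed smaller differences. Of 12 listed for the kinetochore and sister chromatid separation, 4 were measured and 0 passed (limma; 0 also at an unadjusted p under 0.05). HTR12 (AT1G01370), the centromeric histone H3 on which kinetochores are built, gave -0.10 ± 0.13 (SE). The other 3, AT3G08880, AT1G61000 and AT3G54630, gave -0.13 ± 0.18, -0.11 ± 0.20 and -0.02 ± 0.15, and the groups overlapped for all 4. Whether they differ from the checkpoint genes was not tested.

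**Figure D5:**
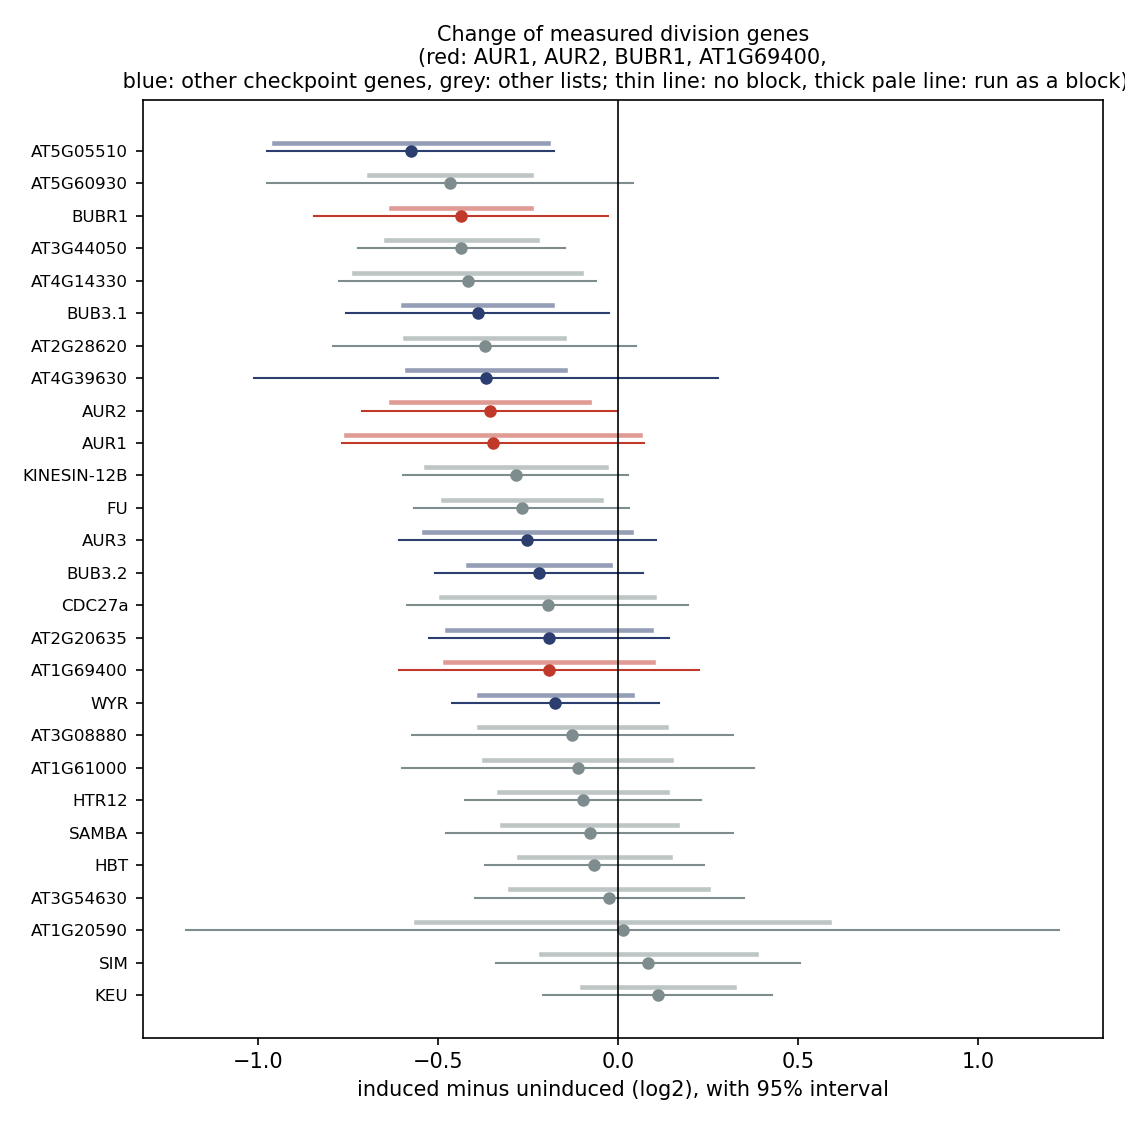
Induced minus uninduced difference (log2, x axis) of the 27 measured division genes, with 95% intervals without a block (thin lines) and with the run as a block (thick pale lines). AT5G05510 stands at the top with -0.57 and KEU at the bottom with 0.11, and the intervals of AUR1 and AT1G69400 include 0 in both fits.

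Over all division lists 27 of 136 genes were measured, of which 24 were negative, with a median difference of -0.22. Over all probes 54.2% were negative, with a median of -0.02. Among the probes in the level range of the 4 genes 59.1% were negative, with a median of -0.05. Without the 4 genes, 20 of 23 division genes were negative, with a median of -0.20. The lists too were chosen with earlier results of these arrays known, so the 23 are not an unselected comparison. At the adjusted threshold 0 of the 27 passed. With the block, trend and robust estimation 4 passed, BUBR1, BUB3.1, AT3G44050 and AT2G28620, all lower, where 1.1% of all probes were called lower and 2.09% higher. Of the 6524 probes in the level range of the 4 genes, that fit called 201 lower and 280 higher. Leaving out 1 array ended all 4 calls in that fit, whichever array it was. Lower calls over all probes fell too, from 423 to between 21 and 75 without 1 induced array. Without uninduced replicate 3 AT5G05510 passed instead (adjusted p = 0.0449).

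The 5 named genes closest to the mean profile of the 4 over the 6 arrays, each gene centred on its own mean, were AT5G14580, AT1G72270, AT1G71840, AT4G31360 and AT5G56120. Their root mean square distances from that profile were 0.03 to 0.04 on the log2 scale (n = 6 arrays), closer than the 4 genes themselves, at 0.07 to 0.12. Their differences ran from -0.35 to -0.28, and none passed the test (limma adjusted p from 0.830 to 0.956). They were picked for the smallest distance among all other genes with a probe of their own. Their closeness and their negative differences therefore follow from that choice.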

How the data were processed

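Each probe has 1 deposited log2 value on each array. The submitters' processing notes name Affymetrix Expression Console 1.3 as the authors' software. The log base was read from the range of the values. How probes were summarised and which genome build was used is not given in the sources used here. Coordinates are therefore left out. No further normalization was applied.

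Probes were named through the platform annotation and RefSeq's gene table (assembly TAIR10.1). Of 38408 probes, 16722 had 1 gene, 759 several and 20927 none. A gene is represented by its probe with the highest mean. Groups follow the stimulation in the labels. Replicate numbers only name arrays. The number of arrays limits the precision.

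All probes were fitted with limma 3.58.1 in R 4.3.3 (lmFit and eBayes, no trend, not robust), with Benjamini-Hochberg adjustment over all probes and a threshold of 0.05. Intervals are unadjusted 95% ones. The fit was checked on simulated arrays, with a pass mark set only for changes of 4 log2 units. That is far above the differences of the division genes, so the check does not bear on them. Figures were drawn with matplotlib. Alternatives were other moderation, scalings, a filter, array weights, the run as a block, the run of 4 alone and single arrays left out.

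The members, lists and tests were chosen with earlier results of these data known. Measured members are all named, as are list genes that passed with the run as a block, otherwise up to 4 per list by size, and the 5 nearest profiles. In the checkpoint list all 11 are named, beyond that rule, after their values were seen. The planned promoter and protein descriptions were not made, as no sequences were used here.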

Additional observations from a re-analysis of the deposited data

How the results depend on the processing

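AUR1, AUR2, BUBR1 and AT1G69400 stayed negative in all 25 fits, the main one included. These are not 25 separate checks of sign. Other moderation, probe filters and the run as a block leave the differences themselves unchanged, and some other fits repeat each other's differences. Their median, -0.35 in the main comparison, lay between -0.42 and -0.24 over these fits. No fit moved it from that value by more than the spread of the median between replicates (SD 0.13), although the range from end to end is wider. The calls depended on the fit. Of the 4 genes 1 was called with the run as a block plus trend and robust estimation, and 0 in every other fit. Of the 27 division genes 4 were called in that fit, and 0 to 1 when single arrays were left out of it. Probes called, 205 in the main comparison, numbered 365 with trend and robust estimation, 323 after quantile normalization, 394 with the run as a block (387 with centred medians, 375 with reference genes), 1225 with block, trend and robust estimation, 485 with array weights and 106 over probes with 1 gene. They ranged from 56 to 154 with 1 array left out. With block, trend and robust estimation and induced replicate 1, 2 or 3 left out they numbered 488, 434 and 383, and without uninduced replicate 1, 2 or 3 they numbered 499, 427 and 474.

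Genes close to 0 changed sign. AT3G54630 was at 0.002218 after centring on medians, with and without the block, 0.0196 with array weights and 0.0609 as the mean of its probes, and SIM at -0.0369 in the run of 4 alone and -0.006978 with array weights. With 1 array left out, AT3G54630 ran from -0.0810 to 0.0763, AT1G20590 from -0.362 to 0.408, SIM (AT5G04470) from -0.0606 to 0.165, SAMBA (AT1G32310) from -0.150 to 0.0470, AT1G61000 from -0.211 to 0.0525 and AT3G08880 from -0.243 to 0.0146. Left out of the fit with block, trend and robust estimation, induced replicate 2 put AT3G54630 at 0.0555, induced replicate 3 put AT1G20590 at -0.0907, uninduced replicate 2 put it at -0.206, and replicate 1 of either group put SIM at -0.0369. The cause was not tested. The reference-centred block fit and the block fits with 1 array left out were chosen after seeing the data. No member had a second probe. No paired analysis was possible because the labels give no replicate numbers, and those used here only name the arrays. The run of array numbers was used as a block in its place.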
